A study of Homo sapiens with 6 samples.

Results

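Lower levels of S100 and small proline-rich genes in RAD51C-knockdown bladder carcinoma cells are described here for 10 genes of epithelial differentiation and defence. They are S100A2, S100A7, S100A7A, S100A8, S100A9, IVL, SPRR1A, SPRR1B, SPRR2A and PI3, taken by name from the 23024 genes with deposited values. They were picked with the sh-RAD51C against NC result already known, so their differences between groups are given as a description without a test. RNA sequencing was done on 5637 cells, an established human bladder carcinoma line. The first group was 3 libraries of transfected cells labelled as a RAD51C knockdown made with a short hairpin RNA (sh-RAD51C). The second was 3 libraries named NC and labelled WT. All 6 libraries came from the same line, and the labels do not state the hairpin, the time of collection, what NC received, or whether each library is its own culture.

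S100 proteins are small calcium-binding proteins that act inside cells and, once released, as signals to surface receptors. The cornified envelope is the crosslinked protein layer that keratinocytes build under the plasma membrane as they mature. Involucrin is laid down early, and small proline-rich proteins are later joined to it by transglutaminases. In urothelium this programme is low, and it is known from squamous differentiation and from the basal and squamous class of bladder carcinoma.

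The target was lower in the knockdown. RAD51C, a recombination repair gene, was at 3.51, 3.09 and 2.95 FPKM in sh-RAD51C 1, 2 and 3, against 14.7, 13.2 and 13.6 FPKM in NC 1, 2 and 3. FPKM is the number of fragments or reads scaled by gene length and library total. The difference was -1.83 ± 0.064 (SE, n = 3 each) on the log2(FPKM + 1) scale, with an adjusted p of 7.16e-09 in limma, and permuting the libraries gave an exact two-sided p of 0.1, which 3 against 3 cannot undercut. Library totals inferred from the FPKM steps were 37104318 to 38079825 reads for sh-RAD51C and 36068282 to 37560184 reads for NC. Tests across genes took in the 11152 whose mean over the 6 libraries reached 1 FPKM, and an adjusted p under 0.05 made a call. At that threshold 26.2% of the genes tested were called lower in sh-RAD51C and 23.2% higher, 49.4% in all, so a call was common. The balance of directions depended on scaling, with 2687 genes lower and 2867 higher after quantile normalization, against 2922 lower and 2589 higher without it.

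Markers of cell types were read beside these genes. All 12 tested of 13 basal and squamous epithelial markers were called lower, with a summed level of 500.1 to 538 FPKM in sh-RAD51C and 1253 to 1317 FPKM in NC. Among them KRT13 (0.211 FPKM in sh-RAD51C, 4.33 FPKM in NC) and PKP1 (0.537 and 2.95 FPKM) passed the filter through the NC libraries alone. KRT5, a basal keratin, averaged 300.9 ± 3.04 FPKM in sh-RAD51C and 686 ± 6.81 FPKM in NC (SD, n = 3 each). Of 12 luminal urothelial markers 7 were tested, with 5 called higher and 1 lower. Their summed level was 1565 to 1639 FPKM in sh-RAD51C and 1047 to 1096 FPKM in NC, most of it keratins. KRT7 averaged 685 FPKM in sh-RAD51C and 407 FPKM in NC, KRT8 463 and 367 FPKM, and KRT18 433 and 265 FPKM. GATA3 and PPARG were the others called higher, UPK3B was called lower and FOXA1 was not called. The umbrella-cell markers UPK1A, UPK1B, UPK3A and KRT20 stayed under 0.1 FPKM in all 6 libraries. Of 12 terminal keratinocyte markers 7 were listed and 2 were tested, and both were called lower, with KRT1, FLG and KPRP under 0.1 FPKM in all 6. The summed level of that list was 24.8 to 26.0 FPKM in sh-RAD51C and 28.3 to 29.9 FPKM in NC. S100A8 and S100A9 are also abundant in myeloid cells, so blood cell markers were included. Of 15 such markers 11 were listed and 3 were tested, with CD14 and LAPTM5 called lower and CD68 higher. Their summed level was 91.5 to 95.9 FPKM in sh-RAD51C and 97.5 to 105 FPKM in NC, most of it LAPTM5. PTPRC, ITGAM, ELANE, CSF3R and FCGR3B were under 0.1 FPKM in all 6 libraries, and CD14 passed the filter through the NC libraries alone. The part of the basal, luminal and terminal keratinocyte markers in the levels of the 10 genes was not tested. In bulk RNA, fewer cells expressing a gene and less RNA per cell cannot be told apart.

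Promoter windows show what sequence the genes share, and RefSeq windows of GRCh38.p14, running from 250 bases before to 50 after the start, were matched for 9 of the 10 genes. The AP-1 motif TGANTCA, the site of FOS and JUN dimers, was searched on both strands and occurs in 7.71% of 35116 such windows. IVL, SPRR1A, SPRR1B and SPRR2A each held it, as did 1 of the S100A2 windows. S100A7, S100A7A, S100A8 and S100A9 did not hold these letters. The windows of the envelope genes from position -220 to -60 are shown because they carry these matches, in capitals, on the strand of the gene. They lie at chr1:152908326-152908486 (IVL, plus strand), chr1:152983861-152984021 (SPRR1A, plus), chr1:153030983-153031143 (SPRR1B, plus) and chr1:153057572-153057732 (SPRR2A, minus).
IVL: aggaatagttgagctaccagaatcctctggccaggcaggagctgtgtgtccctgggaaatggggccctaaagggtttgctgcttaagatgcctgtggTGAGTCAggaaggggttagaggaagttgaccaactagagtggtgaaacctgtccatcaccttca
SPRR1A: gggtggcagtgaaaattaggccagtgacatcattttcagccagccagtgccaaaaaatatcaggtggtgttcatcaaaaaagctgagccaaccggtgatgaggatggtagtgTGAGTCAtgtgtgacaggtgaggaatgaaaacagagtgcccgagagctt
SPRR1B: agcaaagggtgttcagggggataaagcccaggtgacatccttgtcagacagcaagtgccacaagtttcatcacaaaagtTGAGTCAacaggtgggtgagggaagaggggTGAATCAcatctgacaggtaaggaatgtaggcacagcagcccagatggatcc
SPRR2A: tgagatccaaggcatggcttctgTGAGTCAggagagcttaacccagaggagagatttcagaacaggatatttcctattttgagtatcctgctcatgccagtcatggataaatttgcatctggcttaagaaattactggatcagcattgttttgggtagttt
The match began at position -123 in IVL, -108 in SPRR1A and -197 in SPRR2A, while SPRR1B held matches at -141 and -111. SPRR1A and SPRR1B each had 1 match to the TEAD motif CATTCC (both strands, in 14% of windows), at -87 in SPRR1A and at -90 in SPRR1B. The C/EBP motif TTGCNNCAA (both strands, 1.98% of windows) had 0 matches in the windows of the 9 genes. The TATA motif TATAAA (strand of the gene only, 7.33% of windows) was held by 7 of the 9 genes, all but SPRR1B and S100A2. None of these motif letters overlapped another listed here. A match describes the letters and not a site in use.

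S100A7 and S100A7A are neighbouring duplicates, and their windows over the same positions are shown because the pair is so alike that reads may be shared. They lie at chr1:153460711-153460871 (S100A7, minus strand) and chr1:153416300-153416460 (S100A7A, plus), and capitals mark the bases that differ.
S100A7: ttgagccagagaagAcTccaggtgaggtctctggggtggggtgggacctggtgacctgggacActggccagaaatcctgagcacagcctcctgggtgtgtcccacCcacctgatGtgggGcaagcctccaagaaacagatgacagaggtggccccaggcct
S100A7A: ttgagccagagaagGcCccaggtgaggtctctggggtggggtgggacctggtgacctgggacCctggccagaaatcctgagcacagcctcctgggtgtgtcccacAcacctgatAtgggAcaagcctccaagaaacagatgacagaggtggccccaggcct
Over these 161 bases 6 differ, an identity of 96.3%, and the coding sequences are 96.0% identical.

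S100A8 and S100A9 encode the subunits of calprotectin, which binds calcium and sequesters zinc and manganese. S100A9 was at 4298, 3529 and 3948 FPKM in sh-RAD51C 1, 2 and 3, against 7496, 7709 and 6673 FPKM in NC 1, 2 and 3. The groups did not overlap, and the mean was 3925 ± 385 FPKM in sh-RAD51C and 7293 ± 547 FPKM in NC (SD, n = 3 each), 1.86-fold lower. S100A9 ranked 9 by FPKM among the listed genes in each sh-RAD51C library, against 4, 4 and 5 in NC, so it stayed among the most abundant transcripts of these cells. S100A8 was at 343, 238 and 318 FPKM in sh-RAD51C, against 782, 737 and 588 FPKM in NC. Again every sh-RAD51C library was below every NC library, and the means, 299.8 ± 54.7 FPKM in sh-RAD51C and 702 ± 102 FPKM in NC, differed 2.34-fold. Per length, S100A8 was at 7.98, 6.75 and 8.06% of the S100A9 level in sh-RAD51C, against 10.4, 9.56 and 8.81% in NC. The subunit transcripts were therefore both lower, with S100A8 at a smaller share of S100A9 in sh-RAD51C than in NC and no overlap between groups. Their coding sequences are 52.5% identical.

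S100A7 (psoriasin) is an antibacterial and chemotactic protein of squamous epithelia. It was at 112, 75.3 and 94.6 FPKM in sh-RAD51C, against 219, 189 and 140 FPKM in NC. The groups did not overlap, although NC 3 lay nearer to the sh-RAD51C libraries than NC 1 did. The means were 94.1 ± 18.5 FPKM in sh-RAD51C and 183 ± 39.7 FPKM in NC, 1.94-fold lower. S100A7A (koebnerisin), its duplicate, was at 0.712, 0.548 and 0.652 FPKM in sh-RAD51C, against 2.51, 2.31 and 2.03 FPKM in NC. Those groups were well apart, with means of 0.637 ± 0.0829 FPKM in sh-RAD51C and 2.28 ± 0.241 FPKM in NC, 3.58-fold lower. The S100A7A level was 0.634, 0.728 and 0.689% of the S100A7 level in sh-RAD51C, against 1.14, 1.23 and 1.45% in NC. Given the identity of their coding sequences, how reads were divided between them is uncertain.

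S100A2, a calcium-binding protein of basal epithelial cells, was high and differed least among the S100 genes of the set. It was at 1023, 963 and 978 FPKM in sh-RAD51C, against 1116, 1085 and 1088 FPKM in NC. The groups did not overlap, yet the gap was small. Means were 988 ± 30.9 FPKM in sh-RAD51C and 1096 ± 16.9 FPKM in NC, 9.89% lower. The log2 difference of -0.15 was -0.04 after quantile normalization.

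The envelope precursors were scarce in these cells and did not move as one. SPRR1B was at 0.255, 0.0871 and 0.170 FPKM in sh-RAD51C, against 2.73, 2.54 and 3.40 FPKM in NC. The inferred reads were 6, 2 and 4 in sh-RAD51C and 61, 59 and 79 in NC, so the groups were far apart, though on few reads. The means, 0.171 ± 0.0837 FPKM in sh-RAD51C and 2.89 ± 0.451 FPKM in NC, differed 16.9-fold, and the ratio of summed reads, corrected for library totals, was 0.0592 with an exact 95% interval of 0.0301 to 0.106. Such intervals cover counting error only. SPRR1A, whose coding sequence is 96.3% identical to that of SPRR1B, was listed at 0, 0.0407 and 0 FPKM in sh-RAD51C, against 0.126, 0.161 and 0.322 FPKM in NC. That is 0, 1 and 0 inferred reads in sh-RAD51C and 3, 4 and 8 in NC, a ratio of 0.0655 with an interval of 0.00156 to 0.426, and SPRR1A was the only one of the 10 genes under the 1 FPKM filter. Reads of the pair could be split differently by another counting method.

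SPRR2A was at 1.16, 1.39 and 1.01 FPKM in sh-RAD51C, against 2.05, 1.65 and 2.16 FPKM in NC. The groups did not overlap, and sh-RAD51C 2 and NC 2 were the closest libraries. The means were 1.19 ± 0.193 FPKM in sh-RAD51C and 1.95 ± 0.268 FPKM in NC, 1.64-fold lower, on 26 to 35 inferred reads per library in sh-RAD51C and 42 to 55 in NC. Its coding sequence is 96.8 to 99.5% identical to those of SPRR2B, SPRR2D, SPRR2E and SPRR2F, so reads assigned to SPRR2A are uncertain too. The balance within the family differed, since the SPRR1B level was 21.9, 6.25 and 16.8% of the SPRR2A level in sh-RAD51C, against 133, 154 and 157% in NC. Thus SPRR2A was the more abundant per length in sh-RAD51C, and SPRR1B in NC.

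IVL, which encodes involucrin, went the other way in its mean. It was at 1.22, 1.09 and 1.26 FPKM in sh-RAD51C, against 1.13, 0.656 and 0.705 FPKM in NC. NC 1 lay within the sh-RAD51C range, so the groups overlapped, and the means were 1.19 ± 0.0889 FPKM in sh-RAD51C and 0.832 ± 0.263 FPKM in NC, 1.43-fold higher. The inferred reads were 100, 87 and 103 in sh-RAD51C and 88, 53 and 57 in NC.

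PI3 encodes elafin, an inhibitor of neutrophil elastase that transglutaminases can fix into the envelope. It lies apart from the rest, at chr20:45174876-45176544 (hg38, GENCODE 29). PI3 was at 14.8, 8.22 and 15 FPKM in sh-RAD51C, against 104, 95.6 and 88.2 FPKM in NC. No library of either group came near the other group, with means of 12.7 ± 3.86 FPKM in sh-RAD51C and 95.9 ± 7.77 FPKM in NC, 7.56-fold lower. It ranked 3801, 5748 and 3830 by FPKM in sh-RAD51C, against 537, 581 and 626 in NC.

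**Figure D1:**
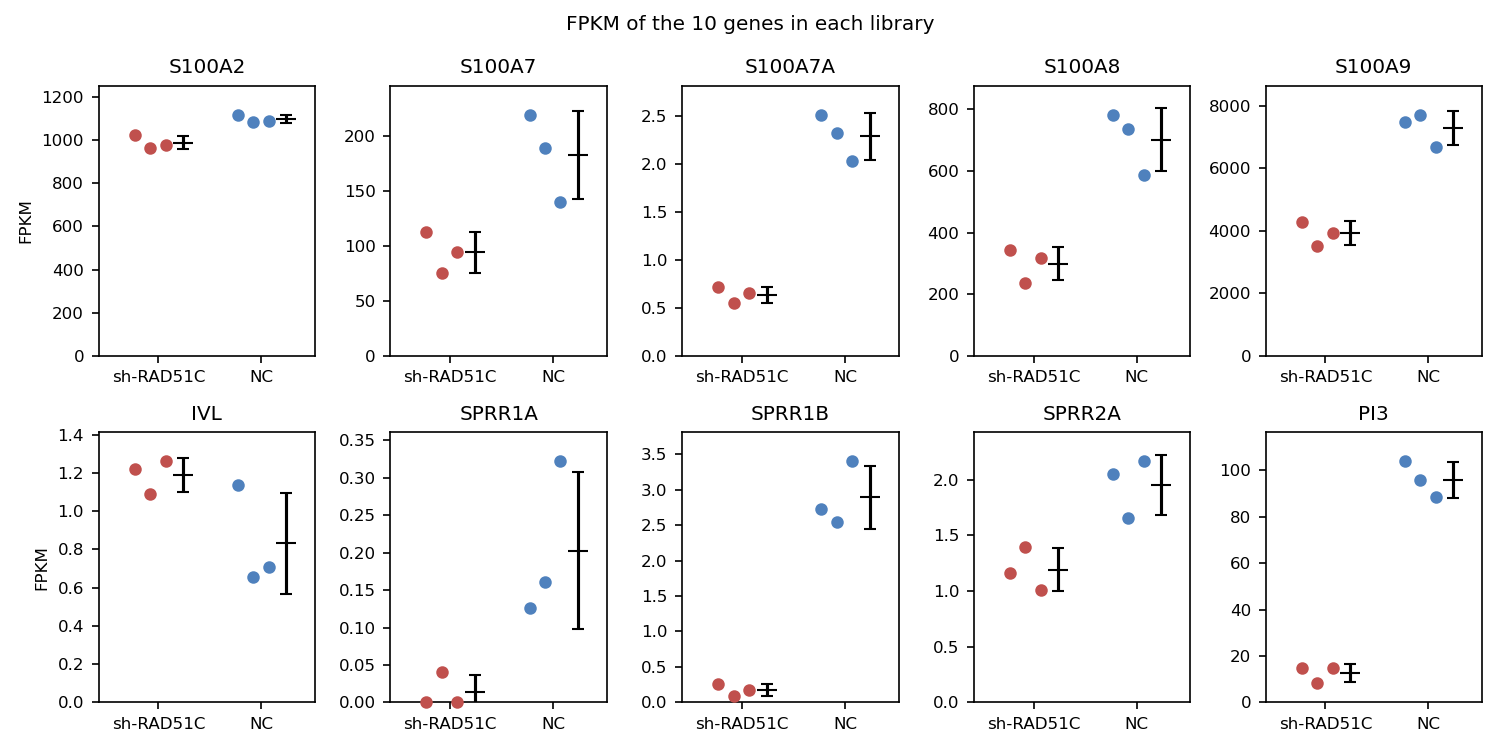
FPKM of each of the 10 genes in sh-RAD51C (left, red) and NC (right, blue). Points are libraries 1, 2 and 3, bars are the mean with SD (n = 3 each), and each panel has its own linear axis from 0. Only IVL overlaps between groups, and mean FPKM in sh-RAD51C is 16.9-fold lower for SPRR1B and 7.56-fold lower for PI3.

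In all, 9 of the 10 genes, SPRR1A under the filter among them, were lower in sh-RAD51C with no overlap between groups, and IVL overlapped. Of the 9 genes that passed the filter 8 were lower without overlap, beside 30.8% of all genes tested. The share of all genes tested that were higher without overlap was 27.6%, and 0 of the 10 genes were. Since this contrast chose the genes, nothing is read from that count. The filter was passed by 9, which had a mean of at least 1 FPKM, S100A7A and SPRR1B through the NC libraries alone and IVL through the sh-RAD51C libraries alone. On the log2(FPKM + 1) scale the differences were -2.87 for PI3, -1.73 for SPRR1B, -1.23 for S100A8 and -1.0 for S100A7A. They were -0.95 for S100A7, -0.90 for S100A9, -0.43 for SPRR2A, -0.15 for S100A2 and 0.27 for IVL. The median over these 9 was -0.95, beside -0.01 over all genes tested. The added 1 FPKM understates the differences of S100A7A and SPRR1B most, because both were under 1 FPKM in sh-RAD51C.

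Some of the genes also varied together among libraries of the same group. The library sh-RAD51C 2 was the lowest of its group for 8 of the 10 genes, and sh-RAD51C 1 the highest for 6. Among the NC libraries NC 1 was the highest for 6 and NC 3 the lowest for 5. Deviations from the group mean were taken on the log2(FPKM + 1) scale. Those of S100A7, S100A7A, S100A8, S100A9 and PI3, a set chosen after the values were seen, had pairwise Pearson correlations of 0.71 to 0.99 (median 0.91, 10 pairs over 6 libraries). SPRR2A ran against them, with correlations of -0.50 with S100A7 and -0.70 with S100A9, and it was highest in sh-RAD51C 2. SPRR1B did not follow them closely either, at -0.18 with S100A7, -0.09 with S100A9 and 0.30 with PI3. On this scale the added 1 FPKM flattens its spread in sh-RAD51C, where all its values were under 1 FPKM. In percent of the group mean SPRR1B was highest in sh-RAD51C 1 and lowest in sh-RAD51C 2, as was S100A7. S100A2 went with the set, at 0.68 with PI3 to 0.79 with S100A7, and IVL less so, at 0.31 with S100A9 to 0.71 with S100A7A. All values of a library share its depth and its RNA, and centring on 2 group means leaves few free values, so these correlations only describe the libraries.

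**Figure D2:**
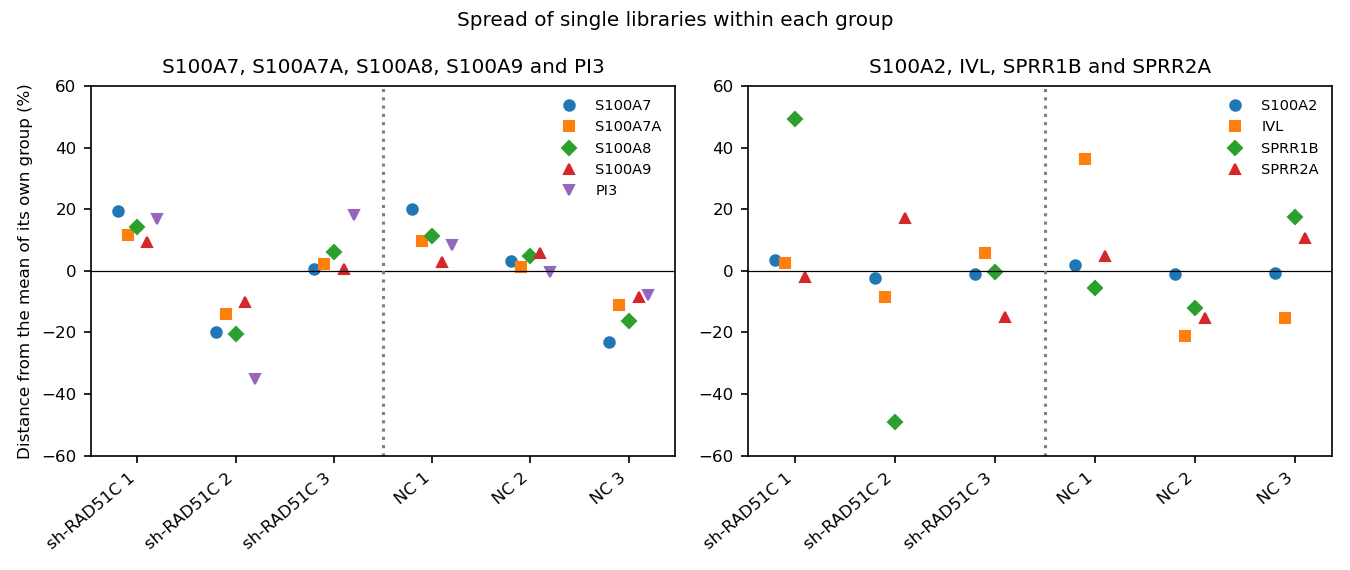
Distance of each library from the mean FPKM of its own group, in percent, with the sh-RAD51C libraries left of the dotted line and the NC libraries right of it. S100A7, S100A7A, S100A8, S100A9 and PI3 (left panel) were all below their mean in sh-RAD51C 2 and in NC 3, while SPRR1B and SPRR2A (right panel) were above theirs in NC 3.

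All but PI3, 9 of these genes sit in the epidermal differentiation complex on chromosome 1, within 659 kb, and none overlaps another gene of GENCODE 29. From S100A10 to S100A1, at chr1:151982915-153632039, the deposited table lists 40 genes, of which 17 were tested. Apart from the genes described above, 9 were tested there, with 6 called lower, 0 higher and 3 not called (FLG-AS1, S100A10 and S100A16). Over all genes tested, 26.2% were called lower and 23.2% higher. Among 49 other genes of the complex, 27 were listed and 8 tested, with 6 called lower, 0 called higher and a median log2 difference of -0.40. That list held the S100, SPRR, late cornified envelope and fused S100 families and a few single genes such as PRR9 and KPRP. All 8 tested were S100 genes, already among the 9 tested from S100A10 to S100A1. Most late genes of the complex that were listed were at or near 0. Of the late cornified envelope genes 3 were listed, at most at 0.0426 FPKM, and the fused S100 genes FLG, RPTN, HRNR and TCHHL1 were under 0.1 FPKM in all 6 libraries. The fused gene TCHH (trichohyalin) was an exception, with a mean of 0.808 ± 0.0474 FPKM in sh-RAD51C and 0.837 ± 0.0918 FPKM in NC, and was not tested. The 6 other SPRR genes listed stayed at or under 0.75 FPKM and were not tested. SPRR2D averaged 0.545 FPKM in sh-RAD51C and 0.294 FPKM in NC, and SPRR2E 0.237 and 0.200 FPKM, with groups overlapping. These near-identical paralogs of SPRR2A thus had the higher mean in sh-RAD51C. SPRR2B, SPRR2F, SPRR2G and SPRR3 had the lower mean there, with group means of at most 0.0570 FPKM.

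**Figure D3:**
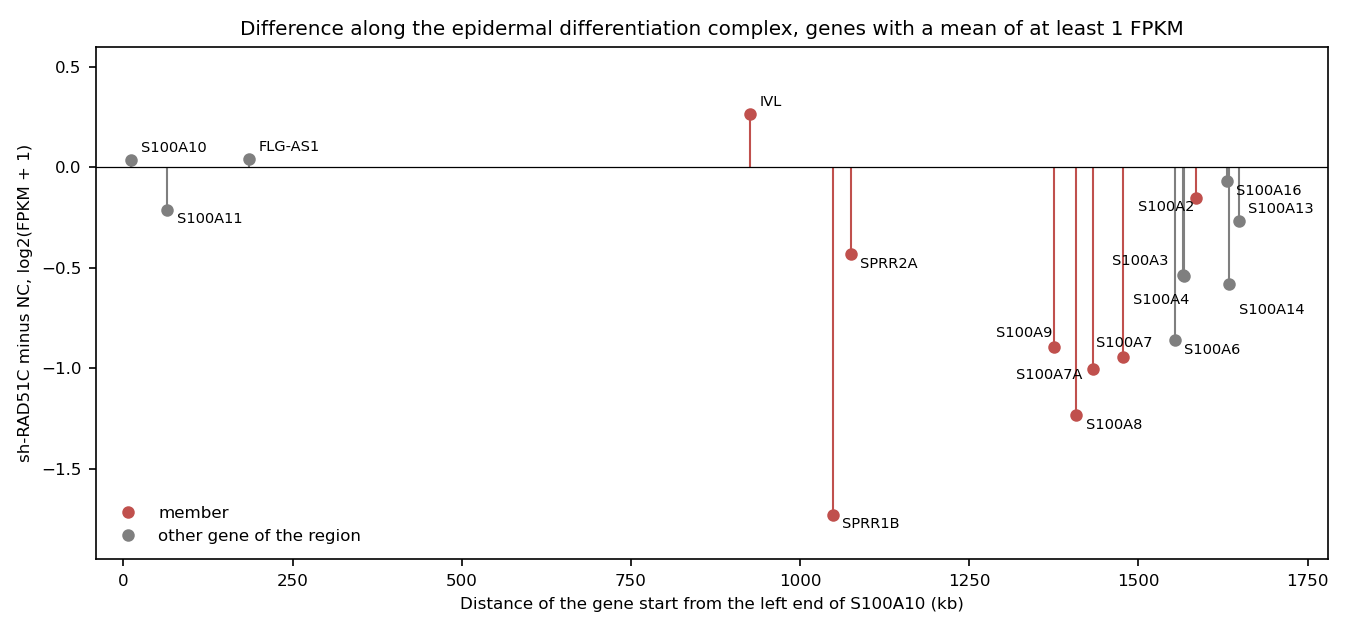
Difference between sh-RAD51C and NC on the log2(FPKM + 1) scale for the 17 tested genes from S100A10 to S100A1, against the distance of the gene start from the left end of S100A10 in kb. Red points are genes described here and grey points are the others, and SPRR1B (-1.73) and S100A8 (-1.23) lie lowest while IVL (0.27) is highest.

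The other S100 genes were not chosen on these values in the same way, although the list was drawn up with earlier results known. Of 13 listed, 9 were tested, and 7 were called lower, 0 higher and 2 not called, against 26.2% lower over all genes. All of the 9 but S100P are the genes of the complex counted above, so the counts are not separate. S100A6 (calcyclin) was at 444, 392 and 419 FPKM in sh-RAD51C, against 779, 765 and 734 FPKM in NC, -0.86 ± 0.049 (SE, n = 3 each) in log2 with an adjusted p of 1.76e-07 in limma. S100P, which lies on chromosome 4 and is known from placenta and urothelium, was at 1.67, 0.458 and 1.40 FPKM in sh-RAD51C, against 8.59, 7.86 and 6.22 FPKM in NC. Its library sh-RAD51C 2 was again the lowest, and the log2 difference was -2.01 ± 0.187 with an adjusted p of 6.57e-06 in limma. S100A3, S100A4 and S100A14 were called lower with smaller log2 differences, of -0.54, -0.54 and -0.58, as were S100A11 at -0.21 and S100A13 at -0.26. The gene bodies of S100A3 and S100A4 overlap on the same strand, and those of S100A13 and S100A1 on opposite strands, so their values may mix. S100A10, the annexin A2 partner, averaged 307.8 ± 22 FPKM in sh-RAD51C and 299.8 ± 9.65 FPKM in NC (adjusted p = 0.589 in limma). S100A16 averaged 135 ± 3.67 FPKM in sh-RAD51C and 142 ± 3.12 FPKM in NC, with an adjusted p of 0.129 in limma.

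The rest of the envelope machinery was split in direction. Of 21 scaffold and crosslinking genes 19 were listed and 11 tested, with 3 called higher, 7 lower and 1 not called (PPL). Over all genes tested the shares were 23.2% higher and 26.2% lower. SCEL, which encodes the envelope precursor sciellin, rose to 8.56 ± 0.970 FPKM in sh-RAD51C, against 2.93 ± 0.277 FPKM in NC (log2 difference 1.28, adjusted p = 3.49e-07 in limma). TGM2, tissue transglutaminase, was 1.6-fold higher, at 252 ± 6.71 FPKM in sh-RAD51C and 157 ± 2.31 FPKM in NC. TGM1, the keratinocyte transglutaminase, averaged 0.559 FPKM in sh-RAD51C and 0.592 FPKM in NC and was not tested. CSTA, the protease inhibitor cystatin A, fell to 34.5 ± 1.37 FPKM in sh-RAD51C, against 61.6 ± 2.25 FPKM in NC (log2 difference -0.82). CASP14, a caspase of cornifying cells, and the desmosome genes PERP and DSP were also called lower, with log2 differences of -0.51, -0.39 and -0.31.

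Regulators of keratinocyte differentiation were mostly lower. Of 36 in the list 30 were tested, with 18 called lower, 5 higher and 7 not called, and a median log2 difference of -0.41. The shares over all genes tested were 26.2% lower and 23.2% higher. Notch receptors promote the exit of keratinocytes from the basal layer. NOTCH1 fell to 3.96 ± 0.403 FPKM in sh-RAD51C, against 11.3 ± 0.412 FPKM in NC, and NOTCH3 to 1.88 ± 0.0299 FPKM in sh-RAD51C, against 6.24 ± 0.537 FPKM in NC. NOTCH2, named after its values were seen, averaged 10.2 ± 1.29 FPKM in sh-RAD51C and 9.89 ± 0.32 FPKM in NC and was not called (adjusted p = 0.689 in limma). Without sh-RAD51C 1 it was called higher, at 0.14 in log2 (adjusted p = 0.0343 in limma). AHR, a ligand-activated factor that induces envelope genes in keratinocytes, fell to 25.4 ± 2.10 FPKM in sh-RAD51C, against 60.2 ± 2.25 FPKM in NC. KLF5, an epithelial transcription factor with a role in differentiation, fell to 73.3 ± 5.51 FPKM in sh-RAD51C, against 151 ± 7.83 FPKM in NC. FOSL1, an AP-1 subunit, went up, at 139, 149 and 138 FPKM in sh-RAD51C against 47.4, 51.8 and 60.8 FPKM in NC (log2 difference 1.40 ± 0.072, adjusted p = 8.89e-08 in limma). The other AP-1 genes did not share a direction. JUN was called higher (log2 difference 0.87), and JUNB (-0.64), JUND (-0.47) and FOSL2 (-0.26) lower, all named after their values were seen. TP63 and CEBPA, also named afterwards, were called lower, at -0.67 and -1.27. Besides FOSL1 and JUN, the regulators called higher were GATA3 (0.60) and, named afterwards, KLF4 (0.25) and OVOL2 (0.39). ZNF750, an inducer of late epidermal genes that was under the filter, had 11 inferred reads over the sh-RAD51C libraries and 264 over NC, and was likewise chosen after its values were seen.

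**Figure D4:**
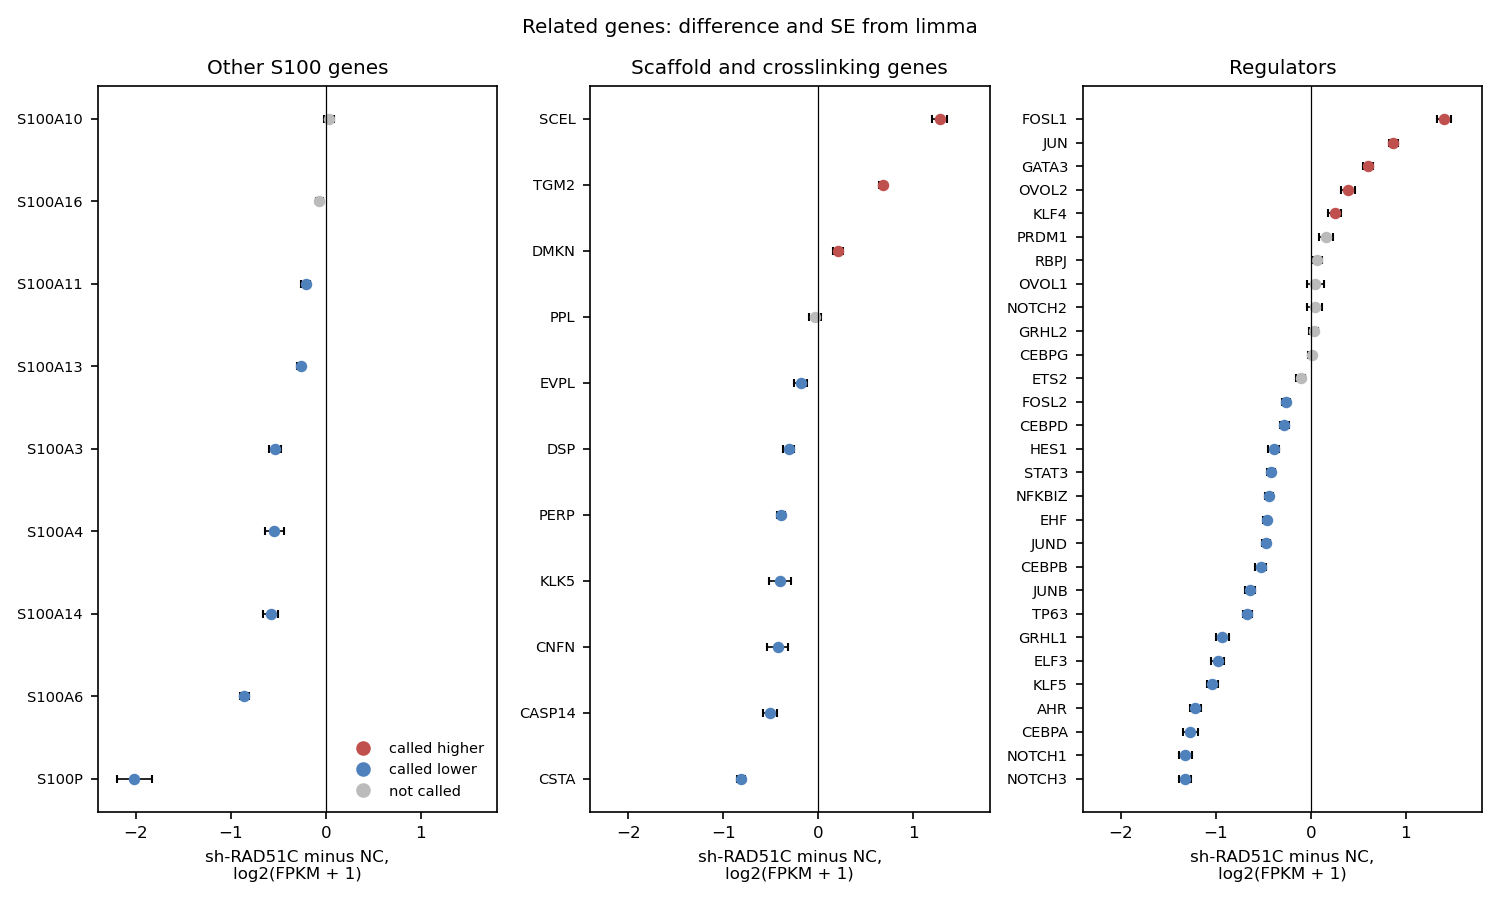
Difference between sh-RAD51C and NC on the log2(FPKM + 1) scale with its SE from limma for the tested other S100 genes, scaffold and crosslinking genes, and all but 1 of the regulators. Red points were called higher, blue lower and grey not called at an adjusted p under 0.05, and SCEL (1.28) and FOSL1 (1.40) lie opposite to S100P (-2.01) and NOTCH1 (-1.32).

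PI3 belongs to the whey acidic protein family, several of which lie on chromosome 20. A list of 25 antimicrobial, whey acidic protein and related genes also held cytokines and HMOX1. Of these 21 were listed and 10 tested, with 6 called lower, 3 higher and 1 not called (HMOX1). SLPI and WFDC2 were the tested genes of the whey acidic protein family. Beside these stand 26.2% lower and 23.2% higher over all genes tested. SLPI, a secreted protease inhibitor of the same fold, was at 51.9, 42.2 and 48.3 FPKM in sh-RAD51C, against 193, 190.2 and 169.9 FPKM in NC. The groups were far apart, with a log2 difference of -1.94 ± 0.069 and an adjusted p of 7.83e-09 in limma. WFDC2 averaged 149 ± 13.5 FPKM in sh-RAD51C and 275 ± 20.4 FPKM in NC, and the cytokine IL36G 3.32 ± 0.413 FPKM in sh-RAD51C and 7.45 ± 0.682 FPKM in NC, both called lower. The chemokine CCL20 was called lower as well, with a log2 difference of -0.46. RNASE7, a skin-derived antimicrobial ribonuclease, rose to 8.66 ± 1.58 FPKM in sh-RAD51C, against 5.06 ± 0.356 FPKM in NC. ADM, which encodes the peptide adrenomedullin, was also called higher, with a log2 difference of 0.37.

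Receptors for released S100 proteins, and cytokine receptors upstream of S100 genes, were counted last. Of 24 listed 20 were tested, with 12 called lower, 5 higher and 3 not called, beside 26.2% lower and 23.2% higher over all genes tested. TLR4, a receptor for calprotectin, averaged 2.23 ± 0.069 FPKM in sh-RAD51C and 0.916 ± 0.0766 FPKM in NC and was called higher. AGER, the receptor for advanced glycation end products, averaged 0.995 ± 0.124 FPKM in sh-RAD51C and 1.84 ± 0.234 FPKM in NC and was called lower. TLR4 passed the filter through the sh-RAD51C libraries alone, and AGER through the NC libraries alone. MCAM and ALCAM were called higher, at 0.42 and 0.34 in log2, while BSG (-0.09) and NPTN (-0.01) were not called. Among the 14 tested on the list of cytokine receptors 11 were called lower and 2 higher. Of those called higher, EGFR (log2 difference 0.18) is a growth factor receptor, named after its values were seen. IFNGR1, the interferon gamma receptor chain, averaged 39.8 ± 2.74 FPKM in sh-RAD51C and 71.8 ± 1.81 FPKM in NC. IL17RC and OSMR were called lower, at -0.61 and -0.50 in log2, and IL6ST was called higher, at 0.34.

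Across the 6 libraries, the genes whose log2(FPKM + 1) followed the mean z-score of the 9 genes most closely were sought among 7371 others with a mean of at least 5 FPKM. They were ZNF503, TMEM69, ATP1B1, QARS1 and TMEM35B, with Pearson correlations of 0.99 to 1.00. ZNF503 was at 3.50, 2.84 and 3.37 FPKM in sh-RAD51C, against 8.93, 7.61 and 7.04 FPKM in NC, so sh-RAD51C 2 and NC 3 were again the lowest of their groups. With 2 groups apart and 6 points, any gene that differs between groups correlates highly, and the order of these genes carries no test.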

How the data were processed

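The authors deposited FPKM for 23024 gene symbols. Build hg38, R 3.2.0 and DESeq2 appear in the submitters' processing notes with no role stated. For aligner, counter, strand setting and gene models the sources used here give nothing, so values of overlapping genes and near-identical paralogs are uncertain. The 6 sample columns were matched by title, with 0 further per-sample columns.

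Genes averaging 1 FPKM or more were compared as log2(FPKM + 1) in limma 3.58.1 (R 4.3.3; empirical Bayes trend, no covariate), with Benjamini-Hochberg adjustment over all 11152. The fit was also run on simulated data with far fewer changed genes than were called here, so no support is drawn from it. P-values measure the spread between libraries, which may be technical. Whole reads were inferred from FPKM steps (tolerance 0.001) for 11151 of these genes; where all 6 counts share a divisor, true counts may be multiples.

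The genes and lists were chosen with earlier results of these data known. Named besides the 10 genes were RAD51C, tested S100 genes, up to 6 genes per list by smallest p, and the 5 most alike in pattern; genes named later are marked, and 1 gene the rule named is not reported here. Positions are from GENCODE 29 and promoters from RefSeq (GRCh38.p14). Alternatives varied the pseudocount, filter, scaling, variance model, replicate block and libraries included.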

Additional observations from a re-analysis of the deposited data

How the results depend on the processing

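Under 14 alternatives, each count of calls kept within 1.5 times its value, and 9 of the 10 genes were lower in sh-RAD51C under each alternative run for that count. Over all genes, 5511 calls became 3947 with a mean of at least 5 FPKM and 5665 with limma voom on inferred reads, a test chosen after seeing the data. Higher calls outnumbered lower ones after quantile normalization (2867 and 2687), after library median scaling (2840 and 2719) and with a mean of at least 5 FPKM (2088 and 1859). Leaving out each library in turn gave 4513 to 5485 calls over all genes and 6 to 7 for the other epidermal differentiation complex genes. The same fits gave 9 to 10 for scaffold and crosslinking genes and 23 to 24 for regulators. They gave 9 for the list of antimicrobial and related genes and 15 to 18 for receptors. The RAD51C difference was then -1.88 to -1.78. With the replicate number as a block 5569 genes were called. Same-numbered libraries deviated together with correlations of 0.190, 0.0257 and 0.0909. Such low positive values cannot settle whether the numbers pair the libraries, and the labels do not state it. Of 68 other named and tested genes (JUND, FOSL2 and OVOL2 not included), 59 kept their call under each alternative in which they were tested. BSG, CD68, DMKN, EVPL, KRT10, LAPTM5, NOTCH2, S100A16 and UPK3B did not, and the cause was not tested. No call reversed. With a pseudocount of 0.1 the log2 differences of the scarce genes were larger, at -3.50 for SPRR1B, -1.69 for S100A7A, -0.67 for SPRR2A and 0.50 for IVL. Depth limits SPRR1A, SPRR1B and SPRR2A most, and 3 libraries a group limit every comparison.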
